A study of Glycine max with 6 samples.

Results

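Soybean (Glycine max, strain KF1) hairy roots carrying an RNA interference (RNAi) construct against GmPHD6 were compared with K599 control roots. A gene entered the comparison when its estimate was marked OK in the deposited columns of all 3 groups and it reached at least 1 FPKM with RNAi or in control. FPKM counts fragments relative to transcript length and library depth, so levels can be compared between genes of different length. This left 32769 of 56044 gene models, 58.5%. A further 23165 models were under 1 FPKM in both columns and 110 carried another flag in at least 1 column. The lowest member stood at 1.00 FPKM in its higher column, and 4234 members stayed under 2 FPKM in both.

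Hairy roots are transformed roots that emerge where a stem is wounded and injected with Agrobacterium rhizogenes, so a plant keeps an untransformed shoot above them. Week-old seedlings received strain K599 in the stem and the roots that formed there were harvested for total RNA. The RNAi group received the strain with the silencing construct and the control group is labelled K599 with wild type as genotype, each with 2 libraries. A GmPHD6 overexpression group, also of 2 libraries, is given beside the other values. It shares its control with the RNAi group, so its position relative to RNAi is a description. The labels state neither the number of plants or roots behind a library nor the promoter of the construct.

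GmPHD6 belongs to the Alfin-like proteins, plant proteins that carry a PHD finger. In Arabidopsis, PHD fingers of this family bind the tail of histone H3 when it is methylated, and so link a chromatin mark to transcription. RNAi constructs produce double-stranded RNA that is processed into small RNAs, which direct the breakdown of matching transcripts. A transcript similar enough in sequence can be hit as well.

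The files pair no gene names with the IDs. In the RefSeq gene table used as reference, 0 IDs were matched, so functions are not given, none of the 55 gene lists written as descriptions could be counted, and root markers could not be checked. GmPHD6 itself was not analysed here, and the extent of its silencing is not known from these values.

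Each group was deposited as 1 pooled value per gene between a low and a high confidence bound. The bounds lay where 2 standard deviations of counting error would put them, at a median of 30.2% of the value with RNAi and 28.1% in control for genes of 1 to 3 FPKM, 10.3% and 9.77% at 10 to 30 FPKM, and 3.76% and 3.67% from 100 FPKM. On that reading they rest on 15340500 fragments per library with RNAi and 15226733 in control. They leave out the spread between libraries. A difference is log2(FPKM + 1) with RNAi minus that in control, a scale on which changes of low genes look smaller than they are. A gene was called higher or lower when this difference was at least 1 in size, 2-fold on this scale, and the bounds did not overlap. The call is a rule of size and no test across replicates.

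Most transcripts stood at similar levels in RNAi and control roots. Of the members, 219 were listed at 0 in 1 column and got no fold, which left 32550. Their median was 6.47 FPKM with RNAi and 6.46 FPKM in control. The difference lay within 0.5 in either direction for 22178 genes, 68.1%. In whole roots, fewer cells of a type and less RNA per cell cannot be told apart. The median difference was 0.05 and its SD across genes 0.72, with 1% of genes below -2.09 and 1% above 2.28.

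Against this background 1836 genes were higher with RNAi, 5.64% of those with a fold, and 1847 were lower, 5.67%. Together they made up 11.3%. Large rises outnumbered large falls. At least 4-fold differences numbered 459 higher and 368 lower, at least 8-fold 136 and 50, at least 16-fold 34 and 8, and at least 32-fold 10 and 1. Bounds lay apart at any fold for 14161 genes, 43.5%, of which 8033 were higher and 6128 lower with RNAi. Most of these, 10478 genes, differed by less than 2-fold. The median ratio of RNAi to control was 1.05, and the split into 8033 and 6128 was not recomputed with the columns scaled to it. A further 132 genes reached 2-fold with bounds that overlapped. The values close to the limit on the higher side were 6.87 FPKM with RNAi against 2.93 in control just inside it, and 14.5 against 6.76 just outside. On the lower side they were 7.69 against 16.4 just inside and 0.993 against 2.98 just outside.

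**Figure D1:**
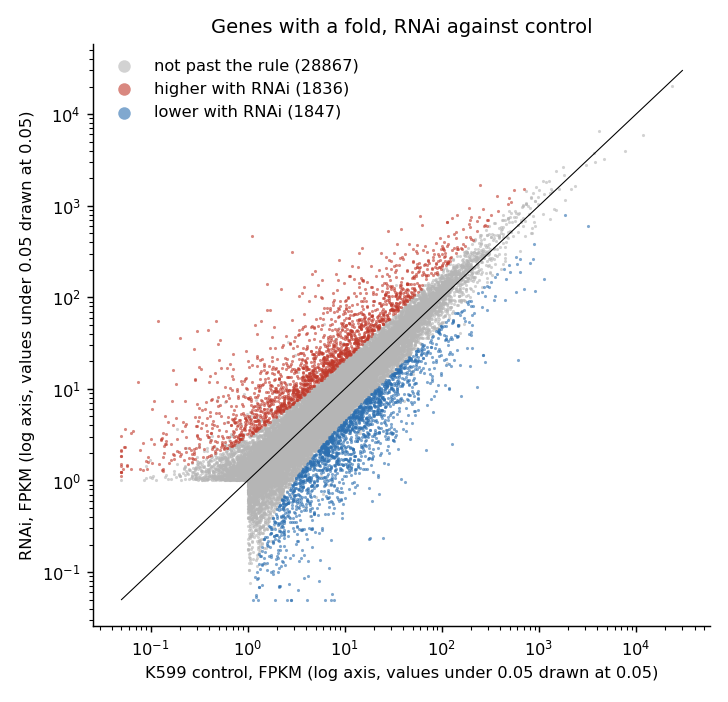
Level of each gene with RNAi (vertical, FPKM, log axis) against K599 control (horizontal, FPKM, log axis), for the 32550 genes with a fold. The 1836 higher genes (red) and 1847 lower genes (blue) lie on either side of the line of equal level, and the red points reach farther from it.

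The 1836 higher genes took a larger share of the RNAi column than of the control column. That direction follows from choosing them by these columns, so the values describe only its size. They rose from a median of 5.51 FPKM in control to 19.9 FPKM with RNAi, a median log2 difference of 1.48. Their summed level was 33564 FPKM in control and 115871 FPKM with RNAi, 3.45 times as much. As a share of the column this was 4.96% in control and 15.4% with RNAi. In the overexpression column the same genes stood at a median of 5.07 FPKM and took 4.33%. Of the higher genes, 291 reached 100 FPKM with RNAi, against 68 in control. Their RNAi sum was spread over many genes, since the 20 highest made up 16.8% of it.

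The 1847 lower genes fell from a median of 11.4 FPKM in control to 2.88 FPKM with RNAi, with a median log2 difference of -1.39. Their sum was 60451 FPKM in control and 17976 FPKM with RNAi, so that control held 3.36 times as much. They took 8.93% of the control column, 2.38% of the RNAi column and 6.58% of the overexpression column, where their median was 9.42 FPKM. Of these genes, 103 reached 100 FPKM in control and 27 with RNAi. The lower genes were therefore the more abundant set in control roots, and the higher genes the more abundant set in RNAi roots. That order follows from choosing genes by the same columns.

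At the very top of the range calls were about as frequent as overall. Among the 20 most abundant genes with RNAi, 2 were higher and 0 lower, and among the 20 most abundant in control 0 were higher and 2 lower. Below them calls were more frequent: of 1256 genes with at least 100 FPKM with RNAi, 291 were higher and 27 lower, and of 944 with at least 100 FPKM in control, 68 were higher and 103 lower, again with the column that enters the call. The most abundant member of all cannot be read. It is a model of 102 bases on chromosome 4 (49969512 to 49969614) listed at 23697 FPKM in control, with bounds of 0 and 70781, and at 20072 FPKM with RNAi, with bounds of 0 and 76513. It alone makes up 3.50% of the control column and 2.66% of the RNAi column, while the bounds allow a level of 0.

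Glyma.08G250300 rose most among genes that reached 5 FPKM in the higher column. It lies on chromosome 8 (21883791 to 21885282, Wm82.a2.v1 gene ID). Its level was 472 FPKM with RNAi (bounds 459 to 485), 1.11 FPKM in control (0.515 to 1.70) and 184 FPKM with overexpression. The log2 difference from control was 7.81, and between 7.41 and 8.33 when the bounds nearest to and farthest from each other are used. It moved from place 30727 among the members in control to place 138 with RNAi. Both construct groups were thus far above control at this gene. The tested genes on either side, 40.9 and 89.9 kb away, differed by 0.22 and -0.52.

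Glyma.11G121800 on chromosome 11 (9303964 to 9305430) followed with 313 FPKM (304 to 322) with RNAi, 2.84 FPKM (2.04 to 3.63) in control and 22.7 FPKM with overexpression. Its log2 difference was 6.36, from 6.04 to 6.73 by the bounds. Its neighbours lie 3.19 and 1.85 kb away and were also above control, by 1.30 and 0.87, although they reached 1.79 and 2.35 FPKM with RNAi. The 10 largest rises among genes with a fold had differences from 5.02 to 7.81 on 8 chromosomes. These genes stood at 0.118 to 4.93 FPKM in control and 42.3 to 472 FPKM with RNAi, and 2 of the 10 reached 10 FPKM with overexpression.

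Among genes with a fold, which leaves out those listed at 0, the largest fall was at Glyma.20G184800 on chromosome 20 (42290006 to 42290628). It read 2.53 FPKM (1.40 to 3.66) with RNAi, 127 FPKM (119 to 135) in control and 27.5 FPKM with overexpression. Its log2 difference was -5.18, from -5.82 to -4.68 by the bounds. Its neighbours, 25.5 and 2.01 kb away, differed by 0.42 and -0.08. Glyma.10G006900 on chromosome 10 (678248 to 679163) was the 74th most abundant member in control at 602 FPKM (587 to 616). It read 20.8 FPKM (17.9 to 23.7) with RNAi and 141 FPKM with overexpression, a log2 difference of -4.79 for RNAi. For both genes the overexpression value lay between the RNAi and the control value. Of the 10 largest falls among genes with a fold, 8 kept at least 10 FPKM with overexpression. The RNAi levels of the 10 ran from 0.232 to 20.8 FPKM.

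Some genes passed between under 1 FPKM and at least 5 FPKM, a cut on level that does not mean absence below it. Among genes with a fold, 82 were called higher with under 1 FPKM in control and at least 5 FPKM with RNAi. Another 80 were called lower with at least 5 FPKM in control and under 1 FPKM with RNAi. Members listed at 0 are outside these counts: 42 listed at 0 in control and 33 listed at 0 with RNAi reached 5 FPKM in the other column. The 82 higher genes had a median of 8.52 FPKM with RNAi and a highest value of 54.99 FPKM, and 11 of them reached 20 FPKM. Of the 82, 55 stayed under 1 FPKM with overexpression and 7 reached 5 FPKM there. The 80 lower genes had a median of 7.30 FPKM in control and a highest value of 41.9 FPKM, and 3 reached 20 FPKM. The gene with that highest value still read 0.969 FPKM with RNAi, with bounds of 0.580 to 1.36. With overexpression 3 of the 80 were under 1 FPKM and 46 had at least 5 FPKM. Both sets touched all 20 chromosomes.

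Short genes were called far more often than long ones. Members with a fold were put in 5 groups of equal size by span, the distance from start to end of the locus with introns included. In the group of 102 to 1965 bases, 11.1% were higher and 10.6% lower. In the group of 6742 to 67649 bases, 2.24% were higher and 2.53% lower. The shares fell from each group to the next in both directions, and the SD of the differences went from 1.00 through 0.77, 0.65 and 0.56 to 0.49. Called genes had a median span of 2413 bases when higher and 2543 when lower, against 4052 for genes not called. The median distance from value to bound in control was 20.3% for the shortest group and 13.6% for the longest, so the bounds were wider where calls were more frequent.

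The relation to span was also seen at matched level. To avoid sorting genes by a column that enters the difference, level was taken from the overexpression column. Among genes of 3 to 10 FPKM there, 22.2% of 1772 short genes were called and 3.83% of 2980 long genes. At 10 to 30 FPKM the shares were 24.1% of 1346 and 5.43% of 1456, and at 1 to 3 FPKM 17.8% of 1429 and 4.04% of 1486. The gap was smaller at 30 to 100 FPKM, with 23.0% of 806 short and 9.76% of 287 long genes. At 100 to 300 FPKM, where long genes are few, the shares were 20.6% of 301 and 17.9% of 28. Matching on FPKM did not match the number of fragments. At 3 to 10 FPKM the median distance from value to bound in control was 20.7% for short and 13.6% for long genes. The part that fragment number, gene family, intron content or fragment assignment may have in this was not tested.

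**Figure D2:**
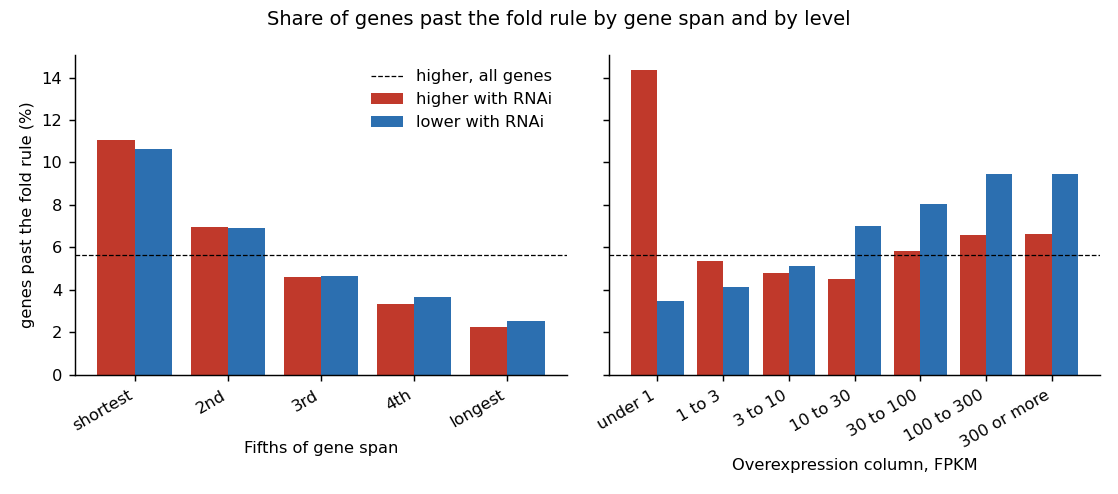
Share of genes past the fold rule (vertical, %) that were higher (red) or lower (blue) with RNAi, in 5 groups of equal size by gene span (left) and by FPKM in the overexpression column (right). The dashed line is the 5.64% of all genes that were higher; shares drop from 11.1% and 10.6% in the shortest group to 2.24% and 2.53% in the longest.

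The balance of direction differed with level. Of 2110 genes under 1 FPKM with overexpression, 14.4% were higher with RNAi and 3.46% lower. By this column lower genes took the larger share from 3 FPKM on, with 7.03% against 4.54% at 10 to 30 FPKM, 8.03% against 5.85% at 30 to 100 FPKM and 9.48% against 6.61% at 100 to 300 FPKM. The balance depended on how level was taken: of 19145 genes with a mean of at least 5 FPKM over RNAi and control, 7.20% were higher and 5.93% lower. A gene under 1 FPKM in control could not be called lower, and a gene under 1 FPKM with RNAi could not be called higher. Members also had to reach 1 FPKM in 1 of the 2 columns. The part these limits have in the excess of higher genes at the bottom was not tested.

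Called genes lay on every chromosome, from 8.63% of the genes with a fold on chromosome 20 to 13.3% on chromosome 3. The share of higher genes ran from 3.65% on chromosome 20 to 6.59% on chromosome 14, and that of lower genes from 4.98% on chromosome 20 to 6.997% on chromosome 3. Median differences of whole chromosomes lay between 0.03 and 0.08. Gene density made little difference to the rate of calls: with the members in 5 equal groups by the number of gene models within a 500 kb window, between 10.8% and 11.7% were called.

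At shorter range, neighbours moved together more often than the overall rate. Pairs of adjacent tested genes whose loci do not overlap numbered 31854. A gene can stand in 2 pairs, so the shares are over neighbours and not over genes. Of the 3616 neighbours of higher genes, 11.7% were higher themselves, beside 5.64% among all genes. Of the 3647 neighbours of lower genes, 10.6% were lower, beside 5.67%. In the opposite direction 4.92% and 4.88% of the neighbours were called. At gaps of 2 to 5 kb the same-direction shares were 15% and 14.9%, at 20 to 50 kb they were 10.2% and 7.41%, and at 50 kb or more 12.6% and 8.92%, so they did not fall steadily with distance. Pearson's r of the differences across pairs was 0.16 at gaps under 5 kb, 0.06 at 20 to 50 kb and 0.10 over all pairs. For genes 5 places apart it was 0.01 over 32449 pairs. Adjacent copies of 1 gene can share fragments, and how such fragments were assigned is not given in the sources used here.

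**Figure D3:**
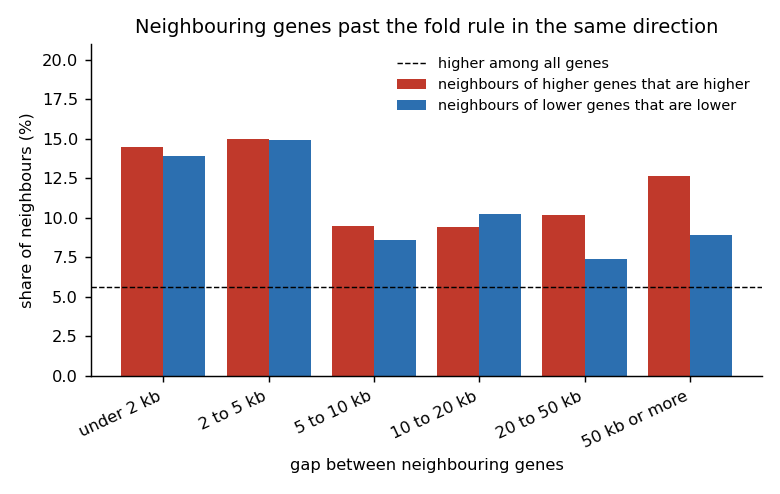
Share (vertical, %) of the neighbours of higher genes that were higher (red) and of the neighbours of lower genes that were lower (blue), by the gap between adjacent genes (horizontal, kb). The dashed line marks the 5.64% of all genes that were higher; the shares are 15% and 14.9% at gaps of 2 to 5 kb, 10.2% and 7.41% at 20 to 50 kb, and 12.6% and 8.92% at 50 kb or more.

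Where at least 3 consecutive tested genes were called in the same direction they were taken as a run. There were 56 runs with 189 genes on 19 of the chromosomes, 33 higher with 109 genes and 23 lower with 80 genes. Gene models that share a locus were counted here as separate genes, and 6 of the runs hold such models. The runs of 3 that start at 7088453 on chromosome 8 and at 23081905 on chromosome 13 each rest on 2 distinct loci. These genes are 5.94% of the higher and 4.33% of the lower genes, so most called genes lay outside runs. Runs were chosen by their values and their members are described without a test.

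The run with the highest median difference, 4.52, lies on chromosome 17 between 9223357 and 9235375. Its 3 genes read 0.474, 0.225 and 0.521 FPKM in control and 54.96, 7.41 and 34.0 FPKM with RNAi. With overexpression they read 1.26, 1.31 and 21.9 FPKM, so that only the last of the 3 was far above control there. The tested genes on either side differed by 0.67 and 0.65. On chromosome 9, 3 genes between 38808616 and 38822829 read 7.38, 1.76 and 2.83 FPKM in control and 20.4, 36.8 and 57.0 FPKM with RNAi. Their overexpression values were 4.36, 10.4 and 1.30 FPKM, above control at the middle gene and below it at the others.

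Runs of 5 genes were higher on chromosomes 2, 7 and 19. The run on chromosome 7 between 16580991 and 16599084 read 11.1, 7.58, 5.79, 18.8 and 6.23 FPKM in control and 171, 111, 98.4, 219 and 15.4 FPKM with RNAi. The first 4 genes rose by 3.47 to 3.87 on the log2 scale and the last by 1.18. On chromosome 19, between 44575260 and 44589512, control read 8.47, 12.7, 16.5, 1.27 and 0.362 FPKM and RNAi 40.3, 65.0, 35.4, 6.22 and 6.10 FPKM. All 5 overexpression values, from 0.195 to 12.7 FPKM, were below those in control. On chromosome 2, between 2138735 and 2160738, control read 34.9, 14.95, 12.1, 0.486 and 15.3 FPKM and RNAi 110 FPKM, 54.6 FPKM, 51.7 FPKM, 2.19 FPKM and 49.2 FPKM. There the overexpression sum was 33.9 FPKM, beside 77.8 in control and 268 with RNAi.

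Among lower runs the longest held 6 genes, on chromosome 12 between 5089678 and 5114869. Control read 6.79, 22.4, 8.51, 13.7, 7.03 and 11.4 FPKM and RNAi 1.00, 3.36, 1.63, 1.73, 1.26 and 1.57 FPKM. The falls were even, from -1.83 to -2.43 on the log2 scale, and the genes on either side differed by -0.34 and 0.26. On chromosome 11, 5 genes between 11446204 and 11472739 read 2.45, 9.89, 11.6, 3.998 and 8.64 FPKM in control and 0.446, 1.12, 1.15, 0.262 and 0.953 FPKM with RNAi, with 37.1 FPKM in sum for overexpression beside 36.6 in control.

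By the median difference of their genes, -3.09 and -3.08, the lowest runs were on chromosomes 13 and 15. On chromosome 13, 4 genes between 36262125 and 36271624 read 7.88, 264, 154 and 83.7 FPKM in control and 1.29, 23.7, 18.3 and 8.37 FPKM with RNAi. On chromosome 15, 3 genes between 4423952 and 4431198 read 87.8, 124 and 193 FPKM in control and 9.54, 17.8 and 17.6 FPKM with RNAi. Overexpression sums were 629 and 598 FPKM, above the control sums of 509 and 405. A different order was seen on chromosome 2 between 5741317 and 5767678, where 4 genes read 1124, 16.7, 141 and 448 FPKM in control, 160 FPKM, 4.31 FPKM, 36.8 FPKM and 94.1 FPKM with RNAi, and 290 FPKM, 16.1 FPKM, 50.7 FPKM and 180 FPKM with overexpression. All of these overexpression values lay between RNAi and control.

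**Figure D4:**
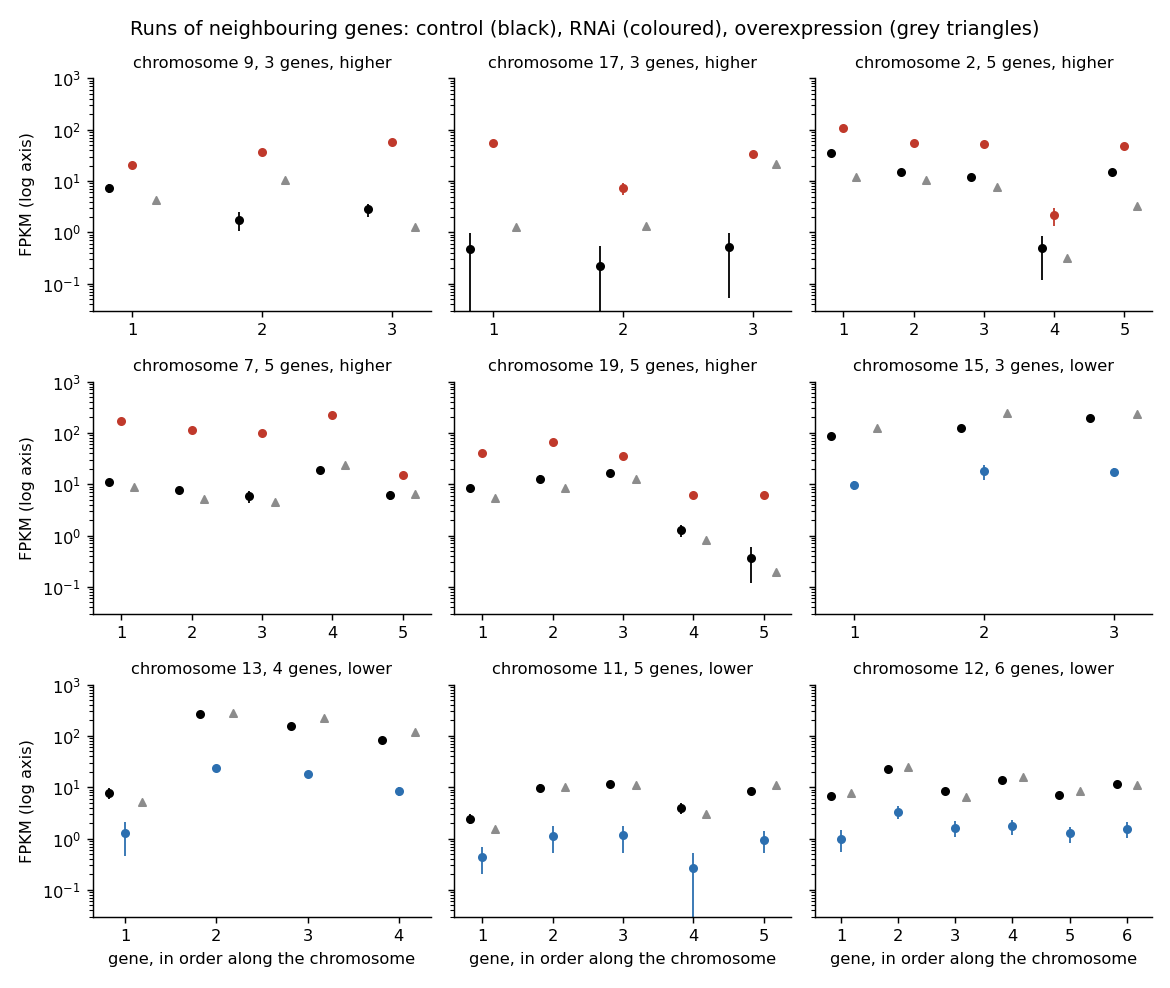
FPKM (vertical, log axis from 0.03) of each gene, in order along the chromosome, in 9 runs: control (black) and RNAi (red for higher, blue for lower) with the authors' bounds, and overexpression (grey triangles, no bounds drawn). In the runs on chromosomes 12 and 11 the overexpression values lie close to control, and in the runs on chromosomes 13 and 15 most lie above it.

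For genes with few fragments the 2 libraries of a group could be told apart. The fragment numbers computed from the bounds fell on sums of whole numbers times 2 step sizes, as averaging 2 libraries of unequal depth gives. Such a sum was found for 66.0% of the 12351 values tried with RNAi and for 67.1% of the 11977 tried in control. When the values were shifted off the sums, 0.219% and 0.317% were placed. A low share was in part set by the rule, which placed a value only where chance would match under 0.05 sums. Libraries are called A and B in each group because which one is replicate 1 is not known. With a mean of at least 5 fragments, 2295 genes had all 4 libraries, of which 418 were members with a fold and 30 had passed the fold rule. Genes above about 29 fragments in either column are missing, as are genes under the limit of 5 and those whose values were not placed. These 30 are therefore a part of the sparse called genes.

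The pooled values that chose these 30 genes are averages of the same libraries, so the libraries are a description of the genes and no check on their calls. RNAi and control libraries did not overlap for 15 of 15 lower genes and 13 of 15 higher genes. Over all 2295 genes they did not overlap for 47.5%, and nothing is read from the difference. On chromosome 12 a lower gene (28382309 to 28382788) had 24 and 18 fragments in the control libraries and 1 and 1 with RNAi. On chromosome 8 a higher gene (7331413 to 7331749) had 1 and 1 in control and 12 and 11 with RNAi. For other higher genes 1 library carried the rise. A gene on chromosome 3 (27082163 to 27083505) had 4 and 0 fragments in control and 0 and 31 with RNAi, one on chromosome 12 (36595257 to 36595473) had 2 and 2 against 19 and 2, and one on chromosome 13 (28559072 to 28559703) had 2 and 1 against 3 and 27. These genes were chosen after their values were seen.

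Across the 2295 genes the libraries of a group differed by a median of 0.52 on the log2(fragments + 1) scale in control and 0.67 with RNAi. They were within 2-fold of each other for 78.8% of genes in control and 68.3% with RNAi. By limma on the 4 libraries with Benjamini-Hochberg adjustment, 6 genes were higher with RNAi, 0.261% of those tested, and 29 were lower, 1.26%. Of these calls, all 6 higher and 24 of the lower lay outside the members, and 5 lower genes were members. Of the 30 genes past the fold rule, 5 of the 15 lower and 0 of the 15 higher were called, with adjusted p from 0.00785 to 0.781. The fold rule chose these 30 from averages of the same libraries, so their limma results are no check on that rule. At an unadjusted p under 0.05 there were 401 genes. The calls depended on the libraries. Without control library A there were 3 higher and 0 lower, and without control library B 4 and 0, which kept 3 and 2 of the 35 calls. Without RNAi library A there were 44 and 185, and without RNAi library B 20 and 92, which kept 34 and 26. In each of these fits the lone library was assumed to vary like the pair. For called genes above about 29 fragments, the spread between libraries was not analysed here.

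**Figure D5:**
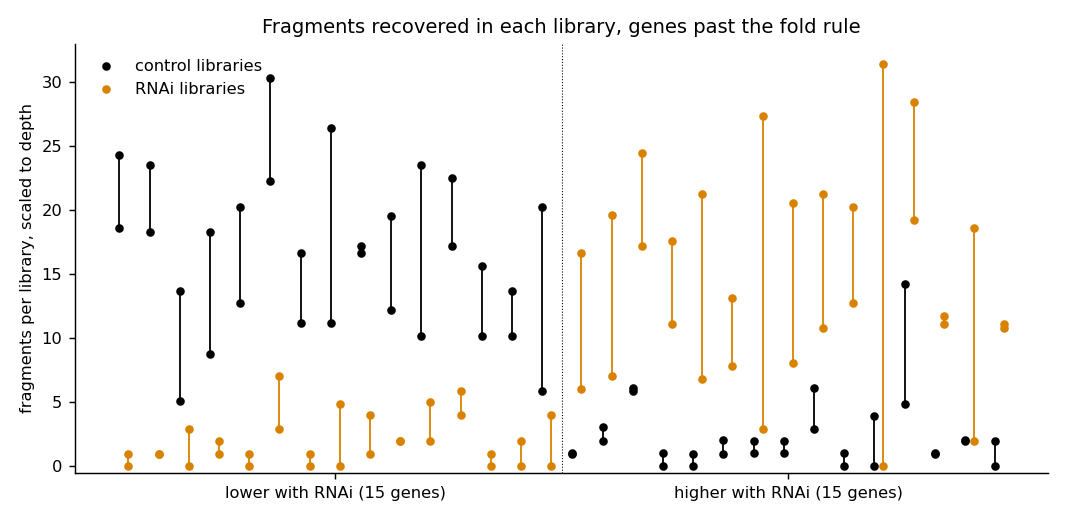
Fragments per library, scaled to depth (vertical), for the 30 genes past the fold rule whose libraries could be told apart; each line joins the 2 libraries of control (black) or RNAi (orange). All 15 lower genes and 13 of 15 higher genes have groups that do not overlap, beside 47.5% of all 2295 genes with recovered libraries. The 30 were chosen by averages of the same libraries, so this is no check on their calls.

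Genes listed at 0 in a column were left without a fold because a listed 0 can be a failed estimate. Like all members, these genes were marked OK, so the flags do not single out such a failure. Of the 219, 110 were listed at 0 in control, with a median of 3.48 FPKM with RNAi and a highest of 74.2 FPKM. A further 109 were listed at 0 with RNAi, with a median of 2.39 FPKM in control. At least 5 FPKM in the other column was reached by 42 and 33 of them. The highest, 1590 FPKM in control, belongs to a short model on chromosome 12 (39192402 to 39192525) with bounds of 83.1 to 3098 that was also listed at 0 with overexpression. The second highest control value among those listed at 0 with RNAi was 75.3 FPKM.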

How the data were processed

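RNA-seq values of soybean hairy roots were used as the authors deposited them, 1 FPKM per gene and group with a lower and an upper bound and a text flag, per the file headers. The 2 libraries of a group had been pooled before deposit. The submitters' processing notes name TopHat. Neither its version nor the counting tool, strand setting or confidence level is stated there. Coordinates follow the deposited file, whose IDs bear the tag Wm82.a2.v1. G6 was taken to be overexpression because the remaining columns are named for RNAi and K599.

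Differences, calls and groups by span, level and position were computed with Python 3.11.15, numpy 2.4.6 and pandas 2.3.3. Named genes are the 2 with the largest difference in each direction among called genes whose higher column reached 5 FPKM, the rule set for IDs without descriptions. Fragments per library were recovered from the width of the bounds: a value was placed on the nearest sum within 0.75 of its rounding error where chance would match under 0.05 sums. Fragments were scaled by the step sizes, and limma 3.58.1 (R 4.3.3) was fitted with a mean-variance trend to log2(fragments + 1). The scripts were tested on simulated data. Members and lists were chosen with earlier results of these data known. All p-values come from limma and reflect the spread among these libraries alone, which can be technical.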

Additional observations from a re-analysis of the deposited data

How the results depend on the processing

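Recomputing the numbers of higher and lower genes gave 22 counts, of which 17 were within 1.5 times of those reported. Some of the 17 could hardly move. Without the filter on level the counts stayed at 1836 and 1847, because 2 values under 1 FPKM cannot differ 2-fold on this scale. Requiring OK in the RNAi and control columns only gave the same counts among 32558 genes. A mean of at least 5 FPKM tested fewer genes and gave 1378 higher and 1136 lower, so that higher genes were then in excess. A 4-fold limit left 459 genes higher and 368 lower (2.54% together), and a 2-fold difference between the nearest bounds 1092 and 934, 6.22%. Scaling control by 1.05 to the median ratio gave 1684 higher and 2042 lower genes, and log2(FPKM + 0.1) gave 2405 and 2645. Under the 4 settings that alter a difference, the 16 values of the 4 named genes kept their sign and were 4.82 to 8.61 in size. These genes were chosen for the largest differences, so their sign could hardly change under such settings. The shortest span group was called 3.71 to 8.18 times as often as the longest over the reported setting and 11 others, and the share of the neighbours of called genes that were called in the same direction was 1.63 to 5.34 times the overall rate.

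The limma counts moved more. Leaving out 1 library gave 3 to 44 higher and 0 to 185 lower genes, log2(fragments + 0.5) 3 and 12, no mean-variance trend 12 higher, and a mean of at least 10 fragments 0 and 0, with 130 genes at an unadjusted p under 0.05; the cause was not tested. The limma settings and the fit without shared loci were chosen after seeing the data. No paired analysis was possible because the recovered libraries carry no replicate number. No gene list could be recomputed, as none was matched.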

Other observations

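Of the 110 gene models flagged other than OK in a column, 38 reached 1 FPKM with RNAi or in control. They took 0.161% of the RNAi column and 0.130% of the control column. The most abundant of them in control stood at 164 FPKM (bounds 157 to 170) and at 169 FPKM with RNAi (162 to 176).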
